A study of Arabidopsis thaliana with 16 samples.

Results

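The YUCCA genes YUC1 to YUC10 of Arabidopsis thaliana were taken by locus and make up 10 of 33056 nuclear gene features in the annotation. For each gene, the base pairs under peaks of H2Aub (histone H2A carrying a single ubiquitin) and of H3K27me3 (histone H3 trimethylated at lysine 27) were read from every peak list. A gene was called marked in a genotype when at least 1 bp of it lay under a peak in at least 2 libraries. H2Aub marked 10 of 10 YUC genes in the wild type and in the mutant, against 42.5% and 62.3% of all genes. H3K27me3 marked 8 of them in the wild type and 6 in the mutant, against 19.7% and 19.6%. With all deposited peaks, weak ones included, H3K27me3 marked 8 in each genotype.

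YUCCA proteins are flavin-containing monooxygenases that turn indole-3-pyruvate into indole-3-acetic acid, the main natural auxin. They catalyse the last step of a short route in which the aminotransferases TAA1, TAR1 and TAR2 first make indole-3-pyruvate from tryptophan. Single genes of the family are switched on in few cell types and at set times, and several members are known Polycomb targets. Polycomb repressive complex 2 places H3K27me3, complex 1 places H2Aub, and ubiquitin-specific proteases such as UBP5 can take ubiquitin off H2A.

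Chromatin came from whole seedlings at 12 days after germination of the wild type, Col-0, and of ubp5, a CRISPR-Cas9 deletion line in the Col-0 background in which parts of the DUSP and UBP domains of UBP5 are lost. The ubp5 seedlings stand for 1 such line. For each genotype there were 3 H2Aub libraries and 2 H3K27me3 libraries, which the study's methods call biological replicates, and both genotypes were grown under the same conditions per the labels. A peak list does not read the deletion in UBP5, so the genotype rests on the labels. Because whole seedlings were used, fewer cells with a mark and less of the mark per cell cannot be told apart. The H2Aub lists differed in size, from 9786 peaks and 10.9 Mb in ubp5 replicate 2 to 19014 peaks and 27.8 Mb in ubp5 replicate 3, with 8457 to 14728 peaks in Col-0. The H3K27me3 lists held 4913 to 5746 peaks over 14.2 to 16.6 Mb. Peaks were counted when their score, 10 times −log10 of the q-value, was over 30. Covered lengths were not corrected for read depth. Mapped reads are listed for each library in the study. In that listing ubp5 replicate 2 is the shallowest H2Aub library and ubp5 replicate 3 the deepest.

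The YUC proteins share a glycine-rich stretch that binds FAD, the cofactor of the enzyme. Its codons are shown for 6 members, picked from those marked by H3K27me3 in both genotypes, in Col-0 alone or in neither. Each run has 36 coding bases, read 5′ to 3′ from the RefSeq TAIR10.1 genome, and the 18 capitals are the glycine-rich motif.
YUC8, chr4:14192772-14192789, plus strand: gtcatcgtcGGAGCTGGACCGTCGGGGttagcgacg
YUC9, chr1:1104707-1104724, plus strand: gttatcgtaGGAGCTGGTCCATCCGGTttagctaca
YUC6, chr5:8938102-8938119, minus strand: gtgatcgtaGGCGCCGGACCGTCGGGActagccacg
YUC10, chr1:18091705-18091722, plus strand: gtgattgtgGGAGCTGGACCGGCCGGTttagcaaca
YUC3, chr1:1279644-1279661, plus strand: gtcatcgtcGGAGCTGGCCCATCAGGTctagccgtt
YUC7, chr2:14081849-14081866, minus strand: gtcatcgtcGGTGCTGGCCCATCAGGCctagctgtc
The coordinates are those of the capitals. In YUC8 this motif lay under an H3K27me3 peak in 2 Col-0 libraries and in 0 ubp5 libraries, and in YUC9 in 2 and 1. In YUC6 and YUC10 it lay under the mark in 2 libraries of each genotype, and in YUC3 and YUC7 in 0. In YUC1, marked in both genotypes but not shown, it lay under H3K27me3 in 2 Col-0 libraries and 1 ubp5 library, as in YUC9. The place of the motif thus did not fully separate these classes. Under H2Aub peaks the motif of YUC8, YUC9, YUC6 and YUC3 lay in 3 libraries of each genotype, that of YUC10 in 3 Col-0 and 2 ubp5 libraries, and that of YUC7 in 2 Col-0 libraries and 1 ubp5 library.

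The start regions were searched on both strands for the telobox AAACCCTA and the repeat GAGAGAGA, spellings chosen here for motifs that the study names. From 250 bases before to 50 bases after the gene start, the telobox was found in 0 of 10 YUC genes, against 6.16% of 33054 windows in the genome. The GAGA repeat was found in 4 of 10, against 7.87% of windows. It stood on the opposite strand each time, as TC repeats along the gene. The sites of YUC2, YUC6 and YUC8 lie inside the transcribed part, and they are shown with the letters of the repeat in capitals.
YUC2, chr4:7724021-7724044, minus strand: aagagttgctTCTCTCTCcccaag
YUC6, chr5:8938719-8938739, minus strand: actaacaaTCTCTCTCTCTCt
YUC8, chr4:14192600-14192618, plus strand: ttccattgatTCTCTCTCt
The YUC4 repeat lies 33 to 22 bases before the gene start and a further one 39 to 48 bases after it. The 250 bases before the YUC4 start are shown because both marks spread across them, with the same letters in capitals.
YUC4 promoter, chr5:3613641-3613890, minus strand: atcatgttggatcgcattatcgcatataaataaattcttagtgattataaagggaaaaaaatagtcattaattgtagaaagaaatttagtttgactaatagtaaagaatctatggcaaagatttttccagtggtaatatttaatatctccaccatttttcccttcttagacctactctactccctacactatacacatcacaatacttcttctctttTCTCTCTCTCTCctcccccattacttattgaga
In the whole 1 kb upstream, the telobox was again in 0 of 10 against 12.9% of windows. The GAGA repeat was in 2 of 10, YUC3 and YUC4, against 14.7%. A match is a run of letters in these windows and not a binding site.

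H2Aub was on all 10 YUC genes in Col-0, where 42.5% of all genes were marked, and on all 10 in ubp5, where 62.3% were. Of the genome, 3.03% of genes were marked only in Col-0 and 22.8% only in ubp5, and 0 YUC genes were in either class. A peak stood in every one of the 6 H2Aub libraries on 7 YUC genes, YUC1, YUC3, YUC4, YUC6, YUC8, YUC9 and YUC10, against 20.4% of genes. The 3 others, YUC2, YUC5 and YUC7, had no peak in ubp5 replicate 2, the H2Aub list with the smallest covered length, and YUC7 had none in Col-0 replicate 1 either.

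H3K27me3 was on 8 YUC genes in Col-0, all except YUC3 and YUC7, against 19.7% of all genes. In ubp5 it was on 6, YUC1, YUC2, YUC4, YUC5, YUC6 and YUC10, against 19.6%. The same 6 had a peak in every H3K27me3 library, against 16.7% of genes. YUC8 and YUC9 were the 2 members marked only in Col-0, a class that held 2.96% of genes, and 0 members were marked only in ubp5, against 2.84%. Peaks at or below the score limit were nevertheless called on both genes in the ubp5 library that lacked a counted one. With all deposited peaks, 8 members were marked in Col-0 and the same 8 in ubp5, against 22.6% and 23.1% of genes. YUC8 and YUC9 thus each had 1 call over the limit and 1 under it in ubp5.

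Both marks were together on 8 YUC genes in Col-0 and 6 in ubp5, against 12.7% and 13.7% of genes. YUC1, YUC4, YUC6 and YUC10 had a peak in every one of the 10 libraries, as did 5.99% of all genes. Among 14083 protein-coding genes within the length range of the YUC genes, the shares were close to those of all genes for H3K27me3, 17.1% in Col-0 and 17.6% in ubp5. For H2Aub they were 48.0% and 75.4%.

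**Figure D1:**
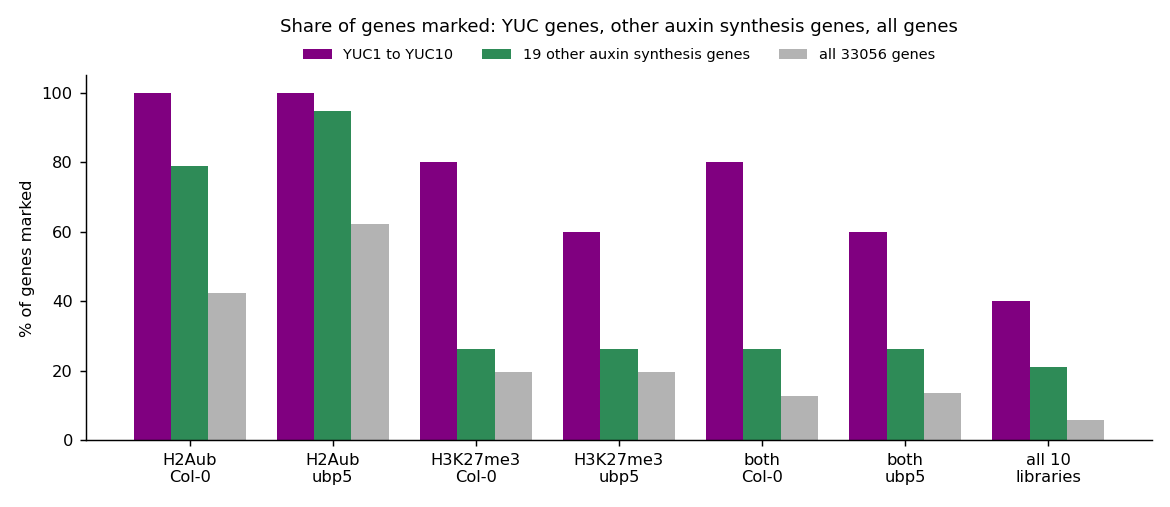
The bars give the percent of genes marked (at least 1 bp under a peak in at least 2 libraries) for YUC1 to YUC10, for 19 other auxin synthesis genes and for all 33056 genes, by mark and genotype, with a last set for a peak in all 10 libraries. H2Aub bars of the YUC genes stand at 10 of 10 in both genotypes, against 42.5% of all genes in Col-0 and 62.3% in ubp5. Their H3K27me3 bars stand at 8 of 10 in Col-0 and 6 of 10 in ubp5 against 19.7% and 19.6% of all genes.

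YUC1 and YUC4 act together in flowers, leaf veins and the embryo, and their proteins are each other's nearest in the family at 69.0% identity. YUC1 (AT4G32540, chr4:15700829-15703000, plus strand, 4 exons) was almost wholly under both marks. H2Aub covered 2172, 2144 and 2172 bp of its 2172 bp in Col-0 and 2128, 2115 and 2126 bp in ubp5. All ubp5 values were below all Col-0 values, with 16 bp between the closest libraries. H3K27me3 covered 2079 and 2131 bp in Col-0 and 2042 and 1991 bp in ubp5, again without overlap. Peaks of both marks ran on past the 3′ end of YUC1 by 2213 to 2372 bp in 9 of 10 libraries and by 3465 bp for H2Aub in ubp5 replicate 3, over sequence that holds no annotated gene.

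YUC4 (AT5G11320, chr5:3611247-3613640, minus strand, 4 exons) was covered to the upstream side instead. H2Aub lay on 2318, 2190 and 2394 bp of its 2394 bp in Col-0 and on 2394, 1746 and 2364 bp in ubp5, and the ranges overlapped. H3K27me3 lay on 2394 bp in both Col-0 libraries and on 2177 and 2394 bp in ubp5. The promoter printed above was inside these domains. H3K27me3 peaks began 2599 to 2696 bp before the gene start in all 4 libraries, and H2Aub peaks 2767 to 3171 bp before it in 5 of 6 libraries. In Col-0 replicate 2 the H2Aub signal was called as separate peaks on the gene and upstream of it, which left the promoter out.

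YUC2 and YUC6, which act with YUC1 and YUC4 in leaf and flower formation, carried the widest H3K27me3 peaks of the family in Col-0. YUC2 (AT4G13260, chr4:7721487-7724070, minus strand, 4 exons) was under H3K27me3 over 2429 and 2584 bp in Col-0 and 2463 and 2386 bp in ubp5. The gene itself was thus covered alike, but the peak on it reached less far upstream in ubp5. Its peaks began 6370 and 6392 bp before the start in Col-0 and 3594 and 3572 bp before it in ubp5. The longer Col-0 peaks took in 3 annotated long non-coding RNA genes, AT4G06045, AT4G06050 and AT4G06055, in both libraries, and the ubp5 peaks on YUC2 reached none of them. Peaks farther than 1 kb from YUC2 were not read, so a separate ubp5 peak over these RNA genes was not looked for. H2Aub covered 1773, 1954 and 2133 bp of YUC2 in Col-0 and 1679, 0 and 1964 bp in ubp5, all of it within the gene.

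YUC6 (AT5G25620, chr5:8934941-8938768, minus strand, 5 exons) is the longest member at 3828 bp. H3K27me3 covered 2603 and 2984 bp of it in Col-0, a mean of 2794 bp ± 269 (SD, n = 2). In ubp5 it covered 1241 and 1494 bp, a mean of 1368 bp ± 179 (SD, n = 2). The difference of the means, ubp5 minus Col-0, was -1426 bp, the largest of the family, and both ubp5 libraries were below both Col-0 libraries. In Col-0 the peaks ran from 5216 and 5334 bp before the start to 2602 and 2983 bp after it. In ubp5 the main peaks ran from 535 and 2149 bp before the start to 1240 and 1238 bp after it. Intronic bases were covered in Col-0 (1202 and 1378 bp) and hardly at all in ubp5 (7 and 18 bp), and the coding bases differed less, with 857 and 1062 bp against 690 and 932 bp.

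H2Aub on YUC6 was narrow in every library. Its main peak ended 1221 to 1332 bp after the start, near the 1240 and 1238 bp at which the main H3K27me3 peaks of ubp5 ended. H2Aub covered 810, 830 and 1338 bp in Col-0 and 768, 615 and 811 bp in ubp5. A stretch from 608 to 1221 bp after the start was under both marks in all 10 libraries. It is 16.0% of the gene and holds the glycine-rich codons printed above.

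YUC10 (AT1G48910, chr1:18091681-18093878, plus strand, 4 exons) is the member farthest from the others, at 46.2% identity to YUC1. It acts in seeds, where the paternal copy is the one expressed in the endosperm. The marks divided the gene: H2Aub lay on its 5′ part, and H3K27me3 on almost all of it. H2Aub covered 1140, 1171 and 1213 bp in Col-0 and 1039, 998 and 792 bp in ubp5, means of 1175 bp ± 36.6 and 943 bp ± 132 (SD, n = 3 each). All ubp5 values were lower, and the peaks ended 985 to 1406 bp short of the 3′ end. H3K27me3 covered 2071 and 2097 bp in Col-0 and 2099 and 2120 bp in ubp5. This was the only member with longer H3K27me3 coverage in both ubp5 libraries, by 2 bp between the closest libraries, and with 1 kb on each side included the mean difference turned to -58.5 bp.

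YUC3, YUC5, YUC7, YUC8 and YUC9 form the group that supplies auxin in roots, and YUC8 and YUC9 also respond to warmth and shade. YUC3 and YUC7, at 81.4% identity, were the members with no H3K27me3 on the gene in any library, also with all deposited peaks. YUC3 (AT1G04610, chr1:1279351-1281618, plus strand, 3 exons) had H2Aub over 1431, 1480 and 1465 bp in Col-0 and 1353, 1407 and 1458 bp in ubp5. Its H2Aub peaks started 606 to 769 bp upstream of the gene in all 6 libraries and left the 3′ end bare. The YUC3 start region was thus under H2Aub without H3K27me3, apart from a weak H3K27me3 peak of score 23 upstream in Col-0 replicate 2.

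YUC7 (AT2G33230, chr2:14080319-14081971, minus strand, 3 exons) had the fewest H2Aub calls of the family, in 4 of 6 libraries. H2Aub covered 0, 940 and 1087 bp in Col-0 and 773, 0 and 1010 bp in ubp5, and the peaks scored 32 to 90. H3K27me3 came near YUC7 only upstream. A ubp5 replicate 1 peak of score 33 reached 189 bp into the 1 kb before the gene, and weaker calls of score 18 and 23 stood there in Col-0 replicate 1 and ubp5 replicate 2.

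YUC5 (AT5G43890, chr5:17648576-17650375, minus strand, 1 exon) is the nearest relative of YUC9, at 83.8% identity, but differed from it in H3K27me3. The mark covered 1436 and 1468 bp in Col-0 and 1302 and 1155 bp in ubp5, without overlap, and its domain ran 4605 to 4683 bp upstream in 3 of 4 libraries. H2Aub covered 1608, 1388 and 1368 bp in Col-0 and 1350, 0 and 1649 bp in ubp5. In ubp5 replicates 1 and 3, separate H2Aub peaks of 3661 and 5382 bp stood upstream of YUC5, reaching 55 and 52 bp into the 1 kb before it. In Col-0, 0 of 3 libraries had an H2Aub peak within that 1 kb.

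YUC8 (AT4G28720, chr4:14192569-14194302, plus strand, 1 exon) combined strong H2Aub with an H3K27me3 call that was shorter or missing in ubp5. H2Aub covered 1465, 1511 and 1557 bp in Col-0 and 1310, 1344 and 1488 bp in ubp5, with all coding bases covered in 5 of 6 libraries. H3K27me3 covered 1039 and 1369 bp in Col-0, a mean of 1204 bp ± 233 (SD, n = 2), and 337 and 0 bp in ubp5, a mean of 168 bp ± 238. The Col-0 peaks scored 68 and 128 and the ubp5 replicate 1 peak 31, just inside the limit. The ubp5 replicate 2 call, of score 19 and 571 bp, was outside it.

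YUC9 (AT1G04180, chr1:1104493-1106241, plus strand, 2 exons) gave a like picture at lower scores. H2Aub covered 1407, 1519 and 1517 bp in Col-0 and 1469, 1392 and 1482 bp in ubp5. In the 1 kb upstream H2Aub covered 0, 87 and 548 bp in Col-0 and 502, 518 and 1000 bp in ubp5, ranges that overlapped. With 1 kb on each side included, the mean difference was 428 bp more in ubp5. H3K27me3 covered 948 and 1070 bp in Col-0 and 0 and 827 bp in ubp5. The Col-0 peaks scored 31 and 82, the ubp5 replicate 2 peak 46, and the uncounted ubp5 replicate 1 call 24. With lists cut to equal covered length, as described further on, both Col-0 peaks fell out and the ubp5 replicate 2 peak stayed, so that the mean difference turned to 414 bp more in ubp5.

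**Figure D2:**
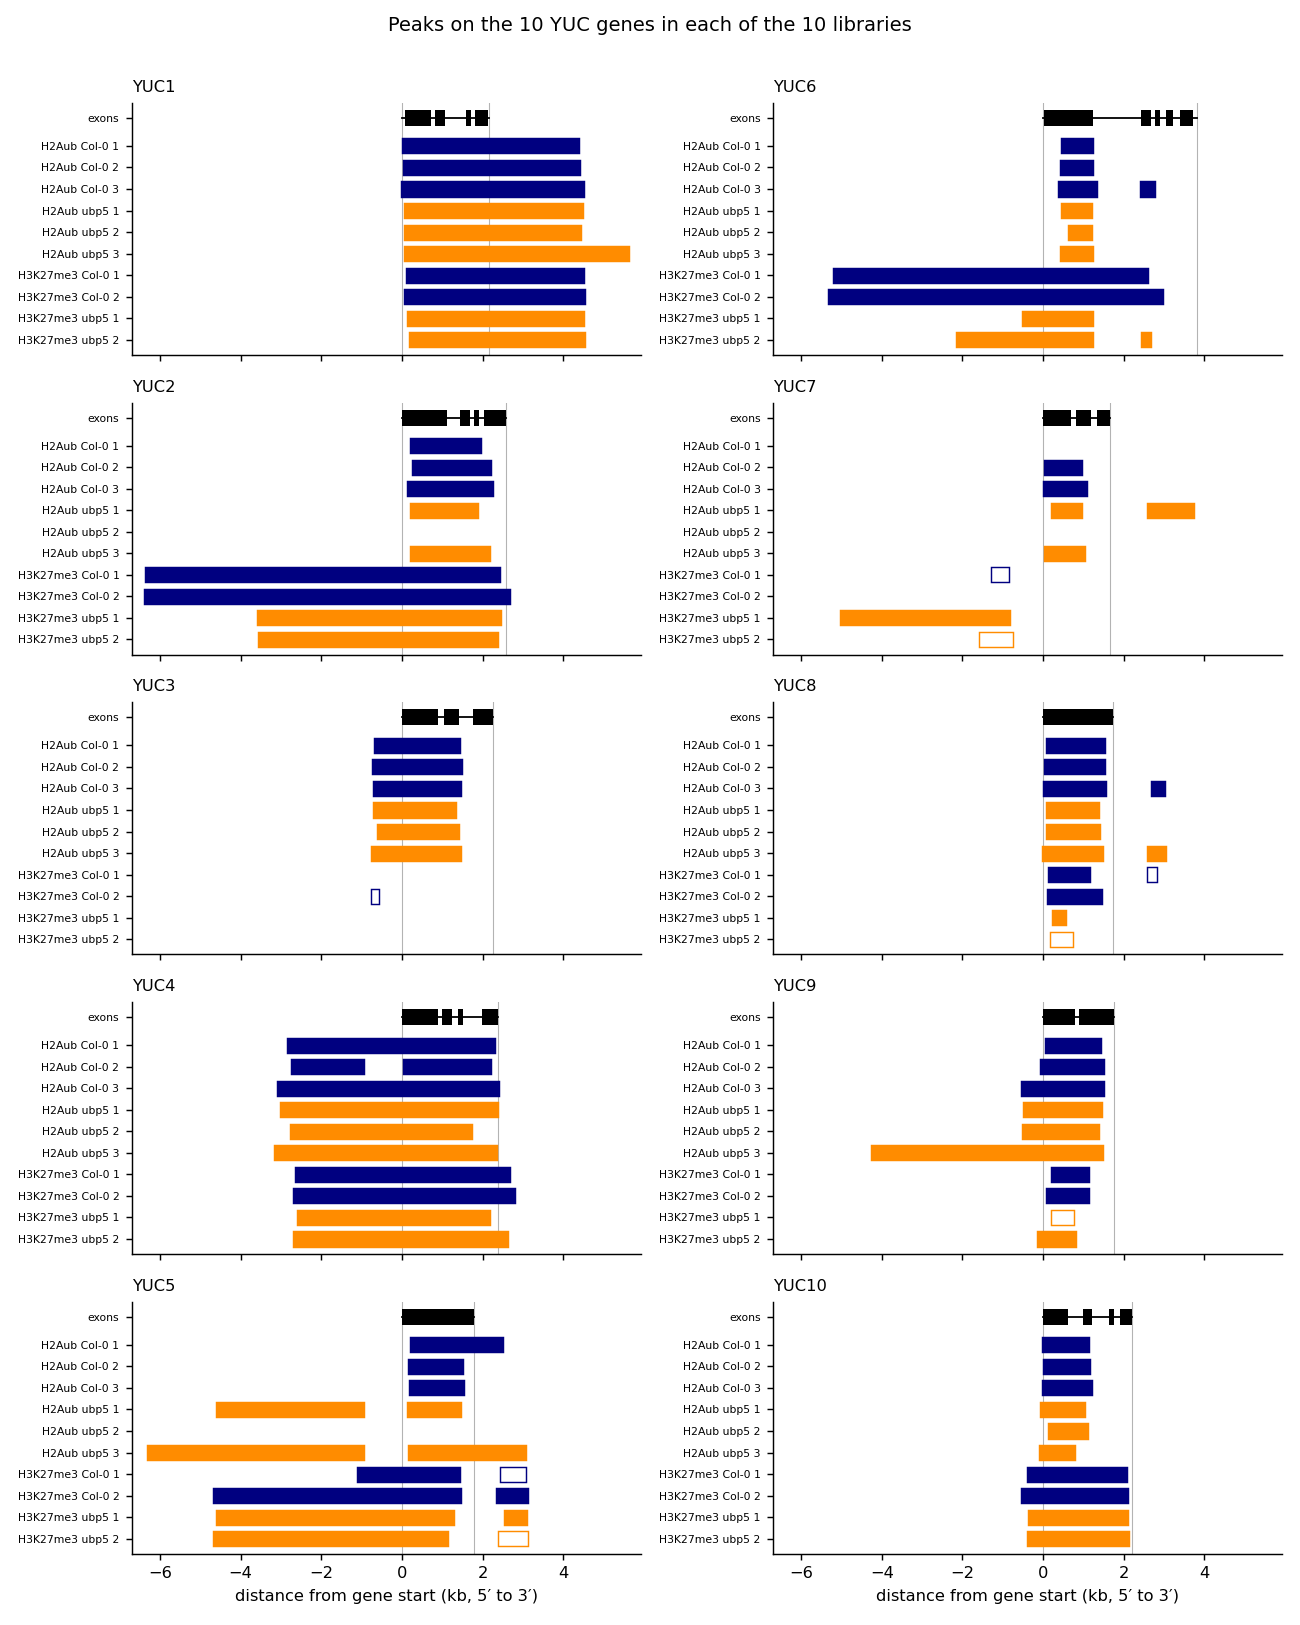
Each panel draws the exons of 1 YUC gene (black) and the peaks that reach within 1 kb of it in each library, against the distance from the gene start in kb, with Col-0 in blue, ubp5 in orange and open bars for peaks with a score of 30 or less. H3K27me3 on YUC6 and YUC2 begins nearer to the gene in ubp5 than in Col-0, YUC3 and YUC7 have no H3K27me3 on the gene, and YUC8 and YUC9 each have 1 open bar on the gene in ubp5.

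The covered lengths were then compared between genotypes. In every ubp5 library H2Aub was longer than in any Col-0 library on 0 of 10 YUC genes, against 15.8% of the 24832 genes with a peak in any library. It was shorter on 2 of 10, YUC1 and YUC10, against 4.18%. The mean was lower in ubp5 on 10 of 10, against 31.8% of genes, with differences from -33.3 bp on YUC9 to -739 bp on YUC2. Within that count YUC2, YUC5 and YUC7 had 0 bp in ubp5 replicate 2, and the differences of YUC3, YUC4, YUC6, YUC8 and YUC9 came from ranges that overlapped. Without ubp5 replicate 2, the means of YUC4, YUC5 and YUC7 turned to 78.3, 44.8 and 216 bp more in ubp5. YUC2 stayed lower, at -132 bp, and 7 of 10 were left with a lower mean. The count of YUC genes with shorter H2Aub in every ubp5 library was 6 without Col-0 replicate 1 and 7 without ubp5 replicate 3. Leaving out a library makes a lack of overlap easier for any gene. Counts with a library left out were not taken over all genes, so they have no share to be read against.

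For H3K27me3, the covered length was shorter in every ubp5 library on 5 of the 8 YUC genes with a peak, YUC1, YUC5, YUC6, YUC8 and YUC9, against 28.0% of 8626 genes. It was longer on 1, YUC10, against 12.2%. The mean was lower in ubp5 on 7 of 8, against 50.6%. Of protein-coding genes in the same length range, 33.3% were shorter, and so the background for genes of this size was above that of all genes.

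In a two-sided exact permutation test of covered length, 3 against 3 libraries allowed no p-value below 0.1 and 2 against 2 none below 0.333. YUC1 and YUC10 reached 0.1 for H2Aub, and YUC1, YUC5, YUC6, YUC8, YUC9 and YUC10 reached 0.333 for H3K27me3. After Benjamini-Hochberg adjustment over all genes with a peak, their exact permutation p-values were 0.501 and 0.829. The test therefore called 0 genes of the genome for either mark, with 0 at an unadjusted p-value under 0.05, and no difference of a YUC gene passed it.

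**Figure D3:**
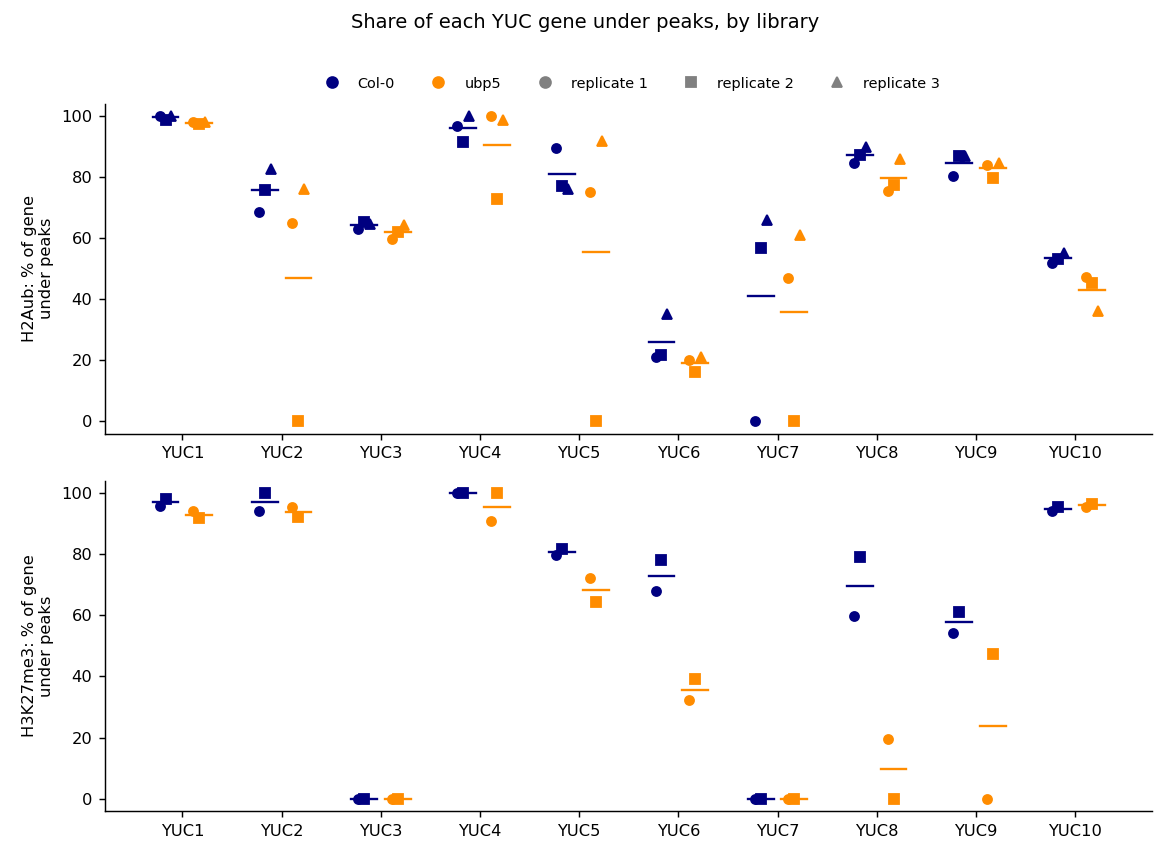
Each point is the percent of a YUC gene's length under peaks in 1 library, H2Aub above and H3K27me3 below, with Col-0 in blue, ubp5 in orange, replicates by marker shape and a line at the mean. The H2Aub points overlap between genotypes on 8 of 10 genes, and the points at 0 for YUC2, YUC5 and YUC7 in ubp5 are replicate 2. For H3K27me3, YUC6 lies at 68.0% and 78.0% in Col-0 against 32.4% and 39.0% in ubp5, and YUC8 at 59.9% and 79.0% against 19.4% and 0.

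Because the lists differ in length, each was also cut to its peaks with the highest −log10 q, up to the smallest covered length among the lists of its mark. Under this rule H2Aub marked 8 YUC genes in Col-0, all except YUC7 and YUC10, against 26.3% of genes. In ubp5 it marked 4, YUC1, YUC3, YUC6 and YUC8, against 29.5%. Coverage was then shorter in every ubp5 library on 5 of 9 YUC genes, YUC1, YUC3, YUC4, YUC5 and YUC9, against 11.5% of 16484 genes, and longer on 0, against 19.0%. The count of YUC genes marked by H2Aub in ubp5 thus depended on the length of the lists. For H3K27me3 the lists of equal length gave 7 and 6 marked members, against 17.5% and 19.0% of genes. They gave 4 members with shorter coverage, YUC1, YUC5, YUC6 and YUC8, against 25.2%, and 1 with longer coverage, against 14.8%.

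The strength of a peak was compared by its place within its own list, a measure added after the values had been seen. For the peak with the largest overlap of each gene, the percent of peaks in the same list with a lower fold over background was taken. Of the 7 YUC genes with H2Aub in every library, 5 stood lower in every ubp5 list than in every Col-0 list, against 19.6% of 6746 genes. They were YUC3, YUC4, YUC6, YUC8 and YUC9, and 0 stood higher, against 13.4%.

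YUC8 had 1 of the strongest H2Aub peaks in the wild type. It stood above 92.8, 96.7 and 99.0% of the Col-0 lists and above 71.1, 54.5 and 88.6% of the ubp5 lists. YUC6 stood above 95.9, 98.1 and 97.7% of the Col-0 lists but above 83.4, 68.0 and 87.7% of those of ubp5. YUC9 differed most, at 82.4, 87.4 and 94.7% in Col-0 against 54.1, 9.74 and 48.8% in ubp5. Its peaks were 1407, 1606 and 2065 bp long in Col-0 and 1971, 1910 and 5756 bp in ubp5. The ubp5 replicate 2 peak, at 9.74%, scored 33. The fold is a mean along the peak, and the part of peak length in these places was not tested. In these 3 genes the covered length overlapped between genotypes, and the place of the peak in its list did not.

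YUC3 stood at 81.9, 82.6 and 87.7% in Col-0 against 54.4, 26.6 and 54.9% in ubp5. YUC4 stood at 63.9, 77.7 and 78.2% against 42.3, 34.4 and 61.0%. The ranges of YUC1 and YUC10 overlapped, and YUC10 had the higher median in ubp5, 45.9% against 38.5%. The ubp5 lists other than replicate 2 held more peaks than any Col-0 list, and the part of list length in these places was not tested.

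For H3K27me3, YUC1, YUC4 and YUC5 stood lower in both ubp5 lists, 3 of 6 against 30.3% of 5529 genes. YUC2 and YUC6 stood higher, 2 of 6 against 23.2%. YUC4 differed most, at 63.4 and 70.4% in Col-0 against 19.2 and 37.3% in ubp5. YUC6 stood at 55.3 and 64.0% in Col-0 against 84.5 and 79.4% in ubp5, where its peak was shorter. The fold is a mean along the peak, and the part of peak length in this was not tested. By −log10 q in place of fold, YUC5 overlapped between the genotypes.

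**Figure D4:**
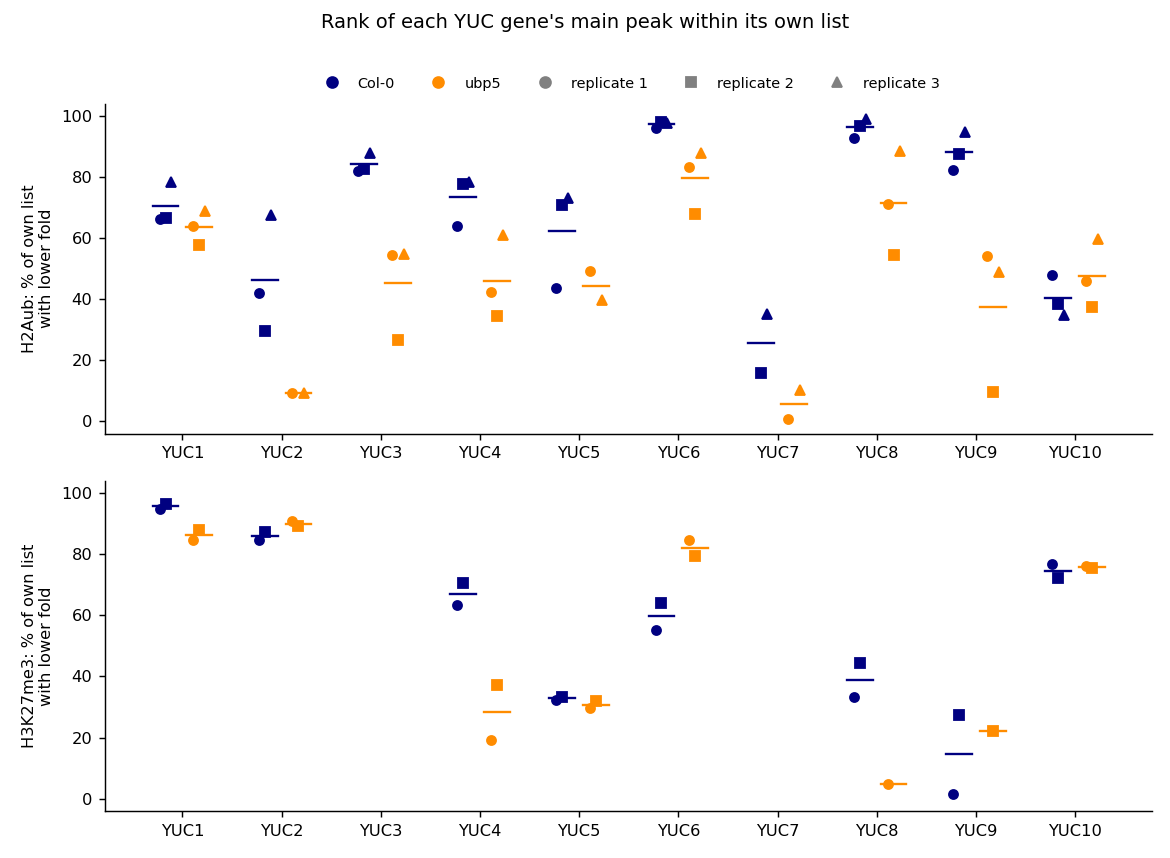
Each point is the percent of peaks in the same list that have a lower fold than the main peak on the YUC gene, H2Aub above and H3K27me3 below, with Col-0 in blue, ubp5 in orange, replicates by marker shape and a line at the mean. For H2Aub, all ubp5 points lie below all Col-0 points on YUC3, YUC4, YUC6, YUC8 and YUC9. For H3K27me3, YUC4 is lower and YUC6 higher in ubp5.

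The rest of the auxin synthesis route was read from a list of 19 genes, and H2Aub marked 15 of them in Col-0 and 18 in ubp5, against 42.5% and 62.3% of all genes. The aminotransferase gene TAR2 was marked only in Col-0, 1 of 19 against 3.03%, and ASB1, PAI1, TSA1 and VAS1 only in ubp5, 4 of 19 against 22.8%. Both shares were near those of the genome. H2Aub was longer in every ubp5 library on 5 of the 19, against 15.8% of all genes with a peak. These were ASA1 and ASB1 (anthranilate synthase subunits), TRP1 (anthranilate phosphoribosyltransferase), PAI1 (phosphoribosylanthranilate isomerase) and TSA1 (tryptophan synthase alpha subunit), which act in the synthesis of tryptophan. The ranges of ASA2, TSB1 and TSB2, which also act in that synthesis, overlapped between the genotypes. ASB1, PAI1 and TSA1 had no H2Aub peak in any of the 3 Col-0 libraries and a peak in each of the 3 ubp5 libraries, with a mean coverage of 1336 bp ± 16.1, 1901 bp ± 475 and 1618 bp ± 692 (SD, n = 3). PAI1 has close copies in the genome, and reads that fit several places were dropped by the authors, so its value is uncertain.

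H2Aub was shorter in every ubp5 library on YUC11, the remaining YUCCA gene, and on the nitrilase gene NIT3, 2 of 19 against 4.18%. YUC11 (AT1G21430) had 991 bp ± 82.9 in Col-0 and 469 bp ± 406 in ubp5 (SD, n = 3 each) and no H3K27me3. H3K27me3 marked 5 of the 19 genes, the same 5 in both genotypes, against 19.7% and 19.6% of all genes: the aminotransferase genes TAA1 and TAR1, the cytochrome P450 genes CYP79B2 and CYP79B3, and NIT2. It was shorter in both ubp5 libraries on TAA1 and CYP79B2, 2 of 5 against 28.0%. TAA1 (AT1G70560), which makes the substrate of the YUC proteins, had 2522 bp ± 17.7 in Col-0 and 1184 bp ± 1102 in ubp5 (SD, n = 2 each).

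All 10 members had an H2Aub peak in some library. Their median share of the gene under H2Aub peaks was 78.2% in Col-0 and 58.8% in ubp5. Over the 24832 genes with an H2Aub peak in any library it was 18.9% and 31.2%. These 24832 include genes with no peak in the genotype read. For H3K27me3 the median share was 87.7% and 80.5% over the 8 members with a peak in any library. Over the 8626 genes with one in any library it was 80.0% and 71.8%. The mean profile of the members over the 10 libraries was nearest, by Euclidean distance of covered shares, to IAA30 (AT3G62100), an Aux/IAA gene of auxin response, at 0.151. AT4G30230 at 0.162 and AT2G15220 at 0.202 followed. The pattern of peak or no peak of YUC1, YUC4, YUC6 and YUC10 was shared by 1980 genes and that of YUC3 by 3720. The pattern of YUC9 was shared by 120 genes and that of YUC8 by 31, or 0.0938% of the genome.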

How the data were processed

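ChIP-seq peak lists of 10 libraries were used, with 6 for H2Aub and 4 for H3K27me3, split evenly between Col-0 and ubp5. The other 6 of 16 samples are inputs and are not analysed here. Per the study's methods and the submitters' processing notes, the authors mapped reads to TAIR10 with STAR 2.7.8a, removed duplicates with Picard, kept reads that mapped once and called broad peaks in each library against input with MACS3 3.0.0. The deposited score is 10 times −log10 q as a whole number, the deposited fold is a ratio of signal over background, and −log10 p and −log10 q, also deposited, are means along the peak. Scores and −log10 values rise with depth, and read numbers were not used here. The deposited H2Aub lists start at a −log10 q of 3.0 and the H3K27me3 lists near 1.01, so peaks with a score over 30 were used for both.

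Genes came from RefSeq TAIR10.1 (33056 features on 5 nuclear chromosomes), on which all peaks ended within the chromosomes. Covered lengths per library were compared by two-sided exact permutation tests of the difference of means, adjusted by Benjamini-Hochberg over all genes with a peak. Protein identity was computed from the annotated coding sequences, and sequences are from RefSeq. No table gave promoters or proteins, so both were read from the genome by coordinates. The functions were tested on simulated lists.

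The text names all 10 members, those of 19 other auxin synthesis genes called in 1 genotype or without overlap, annotated genes under a member's peaks, and the 3 protein-coding genes nearest to the members' mean profile. Members and lists were chosen with earlier results of these data known. The alternatives took every deposited peak, a score over 60, lists of matched covered length, 1 kb flanks, peaks over at least 50% of the gene, other replicate rules or a replicate block, or left out each library in turn. The place of a peak within its list was added after the values had been seen. Python 3.11.15, NumPy 2.4.6, pandas 2.3.3, SciPy 1.17.1, Biopython 1.88 and Matplotlib 3.10.9 were used.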

Additional observations from a re-analysis of the deposited data

How the results depend on the processing

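Of 102 alternative values for the counts of YUC genes, 96 stayed within 1.5 times the count reported. For H3K27me3, a peak in every library of a genotype is the same rule as a peak in 2, so those values could not differ. With lists of matched covered length, 4 YUC genes were marked by H2Aub in ubp5 in place of 10, and 5 had shorter H2Aub coverage in every ubp5 library in place of 2. With 1 kb on each side of the gene, 0 YUC genes had longer H3K27me3 coverage in every ubp5 library in place of 1. Leaving out 1 library at a time, the count with shorter H2Aub coverage ranged from 2 to 7. The count with longer H2Aub coverage was 0 under each alternative run. With the replicate block, in which ubp5 had to be shorter within each replicate number, 6 YUC genes had shorter H2Aub coverage, 0 longer, 5 shorter H3K27me3 coverage and 1 longer. That condition is easier to meet than a lack of overlap. Counts under the block or with a library left out were not taken over all genes. Whether the replicate numbers pair the samples cannot be told from covered lengths. The correlations of same-numbered deviations were -0.0469, 0.0476 and 0.0318 for H2Aub and 0.0682 for H3K27me3. With 2 libraries per genotype, the H3K27me3 value can differ between pairs only in sign. The block allowed no exact p-value below 0.25 for H2Aub and 0.5 for H3K27me3. Of 200 alternative differences in covered length of single members, some could not change sign. The replicate block gives the same mean difference by construction, and H3K27me3 on YUC3 and YUC7 had a reported difference of 0. Opposite signs came in 10 of the 200. In 8 of these the ranges of the genotypes had overlapped, and all 8 were H2Aub differences that became positive. They were YUC4 (183 bp with 1 kb on each side, 78.3 bp without ubp5 replicate 2), YUC5 (81.0 bp with a score over 60, 44.8 bp without ubp5 replicate 2), YUC7 (50.8, 124 and 216 bp without Col-0 replicate 2, Col-0 replicate 3 and ubp5 replicate 2) and YUC9 (428 bp with 1 kb on each side). The other 2 were H3K27me3 on YUC9 with matched covered length (414 bp more in ubp5) and on YUC10 with 1 kb on each side (a difference of -58.5 bp). By −log10 q in place of fold, the same 5 YUC genes stood lower in the ubp5 H2Aub lists. The lists hold no reads, so a mark below the authors' calling limit cannot be told from its absence.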
